A study of Mus musculus with 6 samples.

Results

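The MYC, MAX and MXD network is the set of 9 genes Myc, Mycn, Max, Mxd1, Mxd3, Mxd4, Mxi1, Mnt and Mlx, taken by exact symbol from a count table of 24062 genes. All 9 were in the table and all 9 passed the filter on low counts, among 13990 genes tested. The RNA came from C57BL/6 mouse embryonic fibroblasts (MEFs), which are primary connective tissue cells grown from embryos, and was collected at day 10. There were 3 p27OE libraries, from cells given p27, the kinase inhibitor encoded by Cdkn1b, by lentivirus, and 3 EV control libraries. The labels do not state the age of the embryos, what EV stands for, the promoter of the p27 construct, or whether the 3 samples of a group were separate cultures. The series text calls the cells non-senescent, whereas the protocol and the p27OE titles call them senescent, so only the group names are used here. The EV control titles also carry a dataset tag that is missing from the p27OE titles.

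MYC is a transcription factor that binds DNA as a dimer with MAX, mostly at the E-box CACGTG, and activates genes of ribosome production, metabolism and cell cycle entry. The MXD proteins (MXD1, MXD3, MXD4 and MXI1) and MNT also pair with MAX, bind the same E-boxes and recruit SIN3 and histone deacetylase corepressors there, so they are antagonists of MYC. MLX is a second dimer partner, shared by some MXD proteins, MNT and the glucose sensor MondoA. In growing fibroblasts MYC is the main MYC family member, whereas MXD1, MXI1 and MXD4 are known from cells that stop dividing and MXD3 from cells in S phase.

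Promoters of 4 network genes that passed in at least 1 of the models below (Mxd4, Max, Mxd1 and Mxd3) are shown from RefSeq (GRCm38.p6, the assembly of mm10), as 300 bases running 5′ to 3′ from 250 bases before the start of the gene to 50 bases after it. Capitals mark the E-box CACGTG, which reads the same on the other strand.
Mxd4 (chr5:34187661-34187960, minus strand): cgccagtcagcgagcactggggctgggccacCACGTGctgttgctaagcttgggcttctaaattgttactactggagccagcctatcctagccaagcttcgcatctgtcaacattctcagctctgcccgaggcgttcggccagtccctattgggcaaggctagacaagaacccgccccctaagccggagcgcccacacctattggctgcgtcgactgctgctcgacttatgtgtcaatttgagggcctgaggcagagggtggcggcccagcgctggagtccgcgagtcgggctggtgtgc
Max (chr12:76962199-76962498, minus strand): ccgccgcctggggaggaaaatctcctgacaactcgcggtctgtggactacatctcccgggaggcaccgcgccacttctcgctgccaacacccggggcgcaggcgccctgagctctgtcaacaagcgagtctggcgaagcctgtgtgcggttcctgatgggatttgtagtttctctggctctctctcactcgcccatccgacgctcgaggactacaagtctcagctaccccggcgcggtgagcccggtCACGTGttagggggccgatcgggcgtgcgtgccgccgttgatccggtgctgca
Mxd1 (chr6:86669110-86669409, minus strand): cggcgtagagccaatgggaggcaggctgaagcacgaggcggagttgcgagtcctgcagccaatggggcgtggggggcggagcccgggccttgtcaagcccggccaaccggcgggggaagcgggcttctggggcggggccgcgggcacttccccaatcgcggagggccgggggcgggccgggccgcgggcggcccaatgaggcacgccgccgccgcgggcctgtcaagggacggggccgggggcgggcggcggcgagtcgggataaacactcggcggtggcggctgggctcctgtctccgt
Mxd3 (chr13:55329682-55329981, minus strand): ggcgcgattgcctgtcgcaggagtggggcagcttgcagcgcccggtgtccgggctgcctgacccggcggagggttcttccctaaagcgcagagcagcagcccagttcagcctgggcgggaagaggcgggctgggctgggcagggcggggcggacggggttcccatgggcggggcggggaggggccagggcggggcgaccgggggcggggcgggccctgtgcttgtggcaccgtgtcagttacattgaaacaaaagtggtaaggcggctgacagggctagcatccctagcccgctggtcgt

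Of the 9 genes, 8 had an entry in the promoter table, Myc being the other. CACGTG was found in the windows of Mxd4, Max, Mnt and Mlx, and in none of the windows of Mxd1, Mxd3, Mycn and Mxi1, the last of which has 3 annotated starts. In the first 4 it begins at position -219, -3, -123 and -40 relative to the start. Over all genes, 7.15% of 32851 such windows held it. These matches are letters in a window, not measured binding.

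The introduced gene checked the labels. Cdkn1b had 167, 232 and 337 counts scaled to library size (CPM, with TMM factors) in p27OE 1, 2 and 3, against 43.8, 31.5 and 32.3 CPM in EV control 1, 2 and 3. Library totals ran from 39183624 to 61219345 counts. Fibroblast markers (Col1a1, Col1a2, Col3a1, Pdgfra, Pdgfrb, Thy1 and Vim) summed to between 30511 and 49855 CPM in every library. Markers of endothelial cells (3 genes) reached at most 1.38 CPM in sum and those of epithelial cells (3 genes) at most 2.94 CPM. The 5 leukocyte and macrophage markers summed to 14.6, 21.5 and 28.95 CPM in p27OE 1, 2 and 3, against 52.2, 14.4 and 12.8 CPM in EV control 1, 2 and 3, and none of the 5 was at 0 in any library. The summed Y-linked transcripts (Ddx3y, Eif2s3y, Kdm5d and Uty) were at 1.95, 57.1 and 137 CPM in p27OE 1, 2 and 3 and at 0.125, 126 and 124 CPM in EV control 1, 2 and 3. The X-linked RNA Xist was at 330, 164 and 0.456 CPM in p27OE 1, 2 and 3 and at 407, 5.67 and 0.680 CPM in EV control 1, 2 and 3. Both libraries numbered 1 thus stand apart from the rest, and p27OE 2 lies between. Fits without both libraries numbered 1 still hold p27OE 2, so they are not free of this difference. Because the libraries differ in this way, network genes and list counts are also given from a model that adds the Y-linked level as a covariate, called the Y-adjusted model. The ratios and shares further on have no such adjustment.

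No gene of the network passed in the model with the group alone (edgeR, adjusted p under 0.05), in which 2.61% of all tested genes passed (1.77% higher and 0.843% lower). The nearest was Mxd4, higher in p27OE cells at an adjusted p of 0.0521. At an unadjusted p under 0.05, 3 of the 9 (Max, Mxd1 and Mxd4) passed, against 26% of all genes. DESeq2 called the same 3, all higher in p27OE, against 16.6% of all genes, and limma-voom called Mxd4, against 3% of all genes, as did the stricter filter (CPM of 1 or more in 3 libraries), against 4.04%. The 365 calls over all genes rest on few samples: the number called was 1 without p27OE 1, 1 without p27OE 2, 2 without p27OE 3, 1 without EV control 2 and 1 without EV control 3, whereas 1827 were called without EV control 1. The groups did not overlap for 5 of the 9 genes (Max, Mxd1 and Mxd4 higher, Mxd3 and Mxi1 lower), which is 55.6%, against 33.3% of all tested genes (16.8% higher and 16.5% lower). In the Y-adjusted model, 5 of the 9 passed (Max, Mxd1 and Mxd4 rose, Myc and Mxd3 fell), against 34% of all tested genes (18% higher and 16% lower). Both shares rest on only 9 genes. The median log2 fold change of the 9 was -0.00, against 0.01 over all genes.

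**Figure D1:**
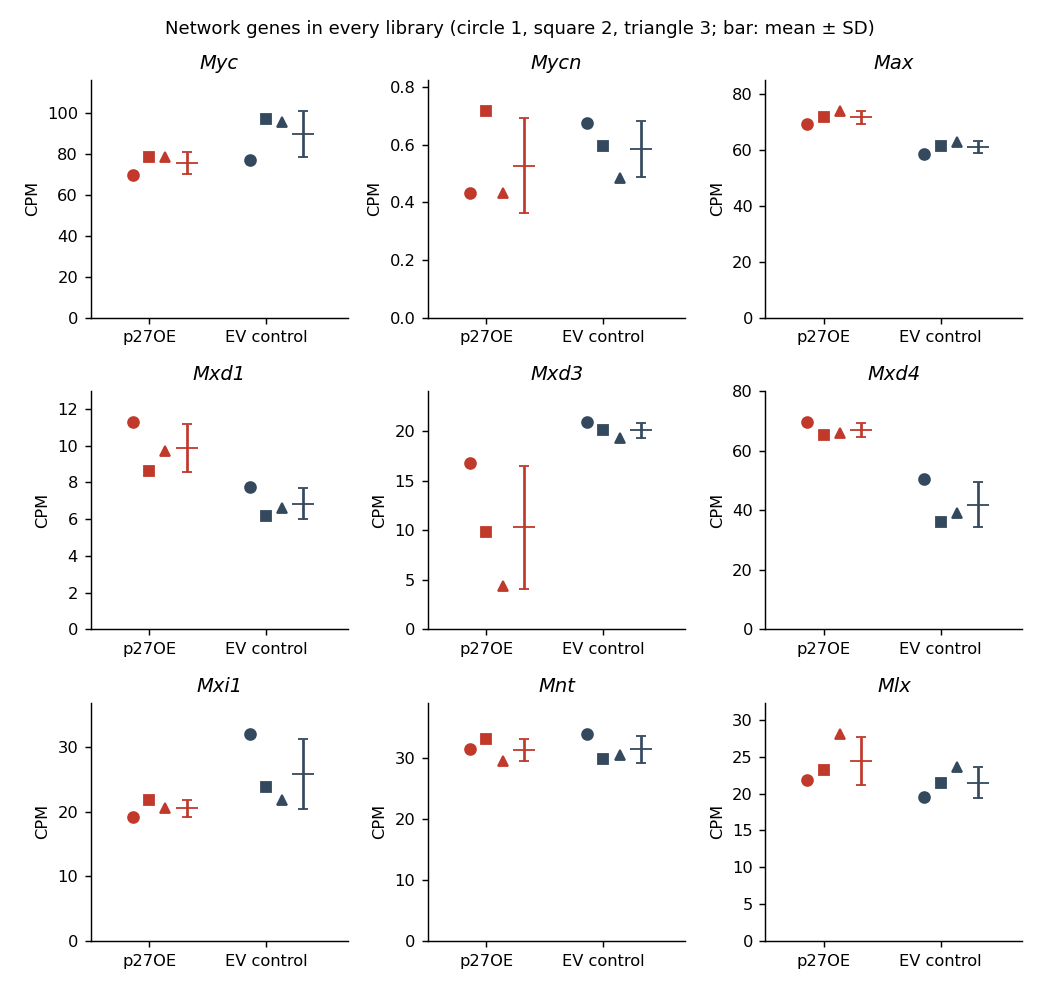
CPM of the 9 network genes in each of the 6 libraries, with p27OE in red at the left and EV control in dark blue at the right of each panel; circles, squares and triangles are libraries 1, 2 and 3, and the bar beside them is the mean ± SD (n = 3). Mxd4 lies between 65.4 and 69.6 CPM in p27OE and between 36.2 and 50.6 CPM in EV control, while the Mnt points of the 2 groups overlap.

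Myc had 69.6, 78.4 and 78.6 CPM in p27OE 1, 2 and 3, against 77.0, 97.2 and 95.3 CPM in EV control 1, 2 and 3. The groups overlap through EV control 1, which lies below 2 of the p27OE libraries, whereas EV control 2 and 3 lie above all 3. The log2 fold change was -0.25 ± 0.11 (± SE; adjusted p by edgeR = 0.21), with a 95% interval from -0.51 to 0.01. In the Y-adjusted model Myc fell by 0.21 ± 0.06 on the log2 scale (edgeR adjusted p = 0.0312). Without EV control 1 the log2 fold change was -0.37 (edgeR adjusted p = 0.0368), and without both libraries numbered 1 it was -0.31 (edgeR adjusted p = 0.034). Myc passed only in these 3 of the 16 alternative fits. Without EV control 2 it was at -0.19 and without EV control 3 at -0.21 (edgeR adjusted p = 0.494 and 0.484). DESeq2 and limma-voom gave adjusted p of 0.206 and 0.224. The difference had the same sign within libraries of like Y-linked level, at -0.15 for p27OE 1 against EV control 1 and -0.29 for p27OE 3 against EV control 2 and 3. Myc lies on chromosome 15 at 61985391 to 61990374 on the plus strand (GRCm38) and no other annotated gene overlaps it. Pvt1, the noncoding RNA gene that neighbours Myc, was at 22.2, 21.8 and 16.5 CPM in p27OE and 18.8, 14.8 and 14.8 CPM in EV control, with a log2 fold change of 0.33 ± 0.16 (± SE; adjusted p by edgeR = 0.249). Pvt1 thus had the opposite sign to Myc, and in the Y-adjusted model it rose by 0.27 (edgeR adjusted p = 0.0326).

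Mycn, the family member of the embryonic nervous system, was barely detected, with 20, 35 and 18 counts in p27OE 1, 2 and 3 and 27, 36 and 22 counts in EV control 1, 2 and 3. Its groups overlapped at 0.433 to 0.717 CPM in p27OE and 0.483 to 0.675 CPM in EV control. The 95% interval of its log2 fold change, from -0.97 to 0.69, is wide enough to hold changes near 2-fold downward at this depth, and leaving out single libraries moved the value between -0.44 (without p27OE 2) and -0.02 (without p27OE 3).

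Max, the partner of MYC and the main partner of MXD proteins and MNT, had 69.1, 71.7 and 74.0 CPM in p27OE and 58.7, 61.4 and 63.0 CPM in EV control. All 3 p27OE libraries lay above all 3 EV control libraries by a small margin. The log2 fold change was 0.23 ± 0.06 (SE), a 1.17-fold difference, at an edgeR adjusted p of 0.0864. In the Y-adjusted model Max rose by 0.24 ± 0.05 (edgeR adjusted p = 0.00858). The difference was 0.24 between the libraries numbered 1 and 0.25 between p27OE 3 and EV control 2 and 3. Max lies on chromosome 12 at 76937269 to 76962201 on the minus strand (GRCm38).

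Mlx, the alternative partner, had 21.9, 23.2 and 28.1 CPM in p27OE and 19.5, 21.4 and 23.6 CPM in EV control. The groups overlapped, with a log2 fold change of 0.18 ± 0.13 (± SE; adjusted p by edgeR = 0.409) and a 95% interval from -0.12 to 0.48. The value was 0.067 without p27OE 3 and 0.10 without EV control 1. The span of Psmc3ip, on the opposite strand, covers 385 of its exonic bases, and the strand setting of the counting is not stated, so reads from there cannot be told apart. Mlx lies on chromosome 11 at 101087277 to 101092207 on the plus strand (GRCm38).

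Among the antagonists, Mxd4 showed the clearest difference. It had 69.6, 65.4 and 66.1 CPM in p27OE 1, 2 and 3, against 50.6, 36.2 and 39 CPM in EV control 1, 2 and 3. The p27OE libraries lay close together and above every EV control library, of which EV control 1 was the highest. The means were 67.0 ± 2.25 CPM in p27OE and 41.9 ± 7.67 CPM in EV control (SD, n = 3 each), a log2 fold change of 0.68 ± 0.13 (SE) or 1.60-fold (edgeR adjusted p = 0.0521). After Y adjustment Mxd4 rose by 0.65 ± 0.08 (edgeR adjusted p = 0.00219), and without EV control 1 it rose by 0.82 (edgeR adjusted p = 0.0196). Leaving out any other single library gave an edgeR adjusted p above 0.05. Mxd4 lies on chromosome 5 at 34173883 to 34187720 on the minus strand (GRCm38). The span of an antisense gene, Gm42846, covers 1001 of its exonic bases, with the same limit on strand.

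Mxd1, the founding MXD gene, had 11.3, 8.63 and 9.73 CPM in p27OE and 7.77, 6.15 and 6.63 CPM in EV control. The groups did not overlap, with the highest EV control library just under the lowest p27OE library. The log2 fold change was 0.53 ± 0.15 (SE), or 1.44-fold (edgeR adjusted p = 0.0958), and Mxd1 rose by 0.50 ± 0.12 in the Y-adjusted model (edgeR adjusted p = 0.0178). The difference was 0.53 between the libraries numbered 1 and 0.60 between p27OE 3 and EV control 2 and 3. Mxd1 lies on chromosome 6 at 86647042 to 86669161 on the minus strand (GRCm38).

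Mxd3 ran the other way. It had 16.7, 9.78 and 4.37 CPM in p27OE 1, 2 and 3, against 20.9, 20.1 and 19.3 CPM in EV control 1, 2 and 3. The EV control libraries were close together, whereas the p27OE libraries spread over more than 3-fold, all below the controls. The means were 10.3 ± 6.20 CPM in p27OE and 20.1 ± 0.768 CPM in EV control (SD, n = 3 each), and the log2 fold change was -0.96 ± 0.43 (± SE; adjusted p by edgeR = 0.219). The value was -1.52 without p27OE 1 and -0.60 without p27OE 3. Once Y-adjusted, Mxd3 fell by 1.24 ± 0.31 on the log2 scale (edgeR adjusted p = 0.0199). The difference was -0.32 between the libraries numbered 1 and -2.16 between p27OE 3 and EV control 2 and 3. Mxd3 lies on chromosome 13 at 55325168 to 55329823 on the minus strand (GRCm38), and the span of Prelid1, on the other strand, covers 105 of its exonic bases.

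In the p27OE libraries the order of Mxd3 was that of proliferation genes. The summed CPM of 8 such genes (Mki67, Top2a, Ccnb1, Cdk1, Pcna, Mcm2, Mcm5 and Ccna2) was 818, 736 and 514 in p27OE 1, 2 and 3, against 1085, 1325 and 1300.0 in EV control 1, 2 and 3. That order did not hold in EV control, where EV control 1 had the lowest sum and the most Mxd3 (20.9 CPM, against 20.1 and 19.3 CPM). The p27OE library with the most Cdkn1b, p27OE 3, had the least Mxd3 and the lowest sum, and p27OE 1, with the least Cdkn1b, had the most Mxd3 and the highest sum. The Y-linked level also differs between these 3 libraries, so these features cannot be told apart in them. Within p27OE, Mxd4 varied only from 65.4 to 69.6 CPM over the same libraries. In bulk RNA, fewer dividing cells and less RNA per cell cannot be told apart.

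**Figure D2:**
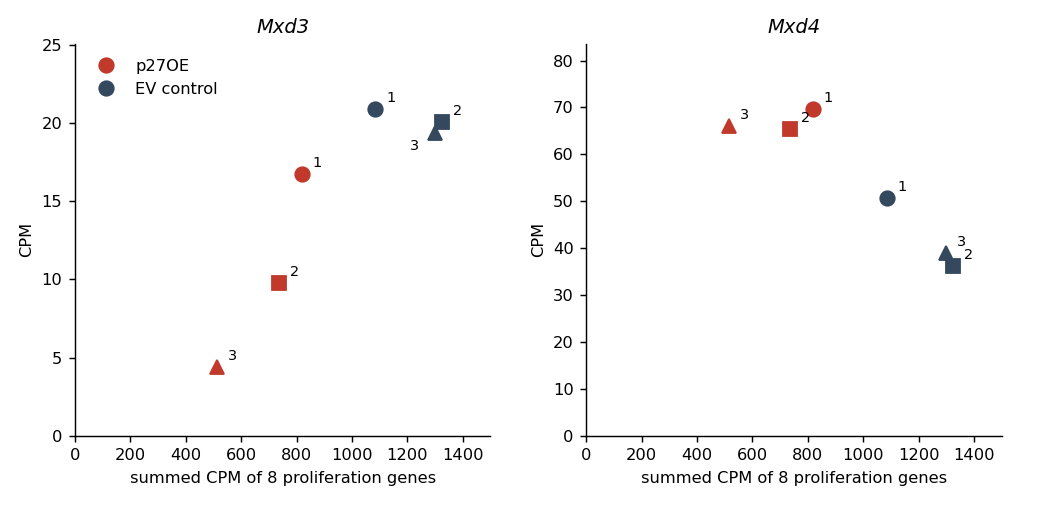
CPM of Mxd3 (left) and Mxd4 (right) against the summed CPM of 8 proliferation genes, 1 point per library, with p27OE in red and EV control in dark blue and the library number beside each point. In p27OE, Mxd3 lies at 4.37 to 16.7 CPM over sums of 514 to 818, and Mxd4 stays between 65.4 and 69.6 CPM.

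Mxi1, which encodes the MAX interactor of the MXD family, had 19.3, 21.8 and 20.5 CPM in p27OE 1, 2 and 3, against 32.1, 23.8 and 21.9 CPM in EV control 1, 2 and 3. The groups were separated by a narrow gap, and EV control 1 stood well above the other libraries. The log2 fold change was -0.34 ± 0.15 (± SE; adjusted p by edgeR = 0.229), and -0.35 ± 0.12 in the Y-adjusted model (edgeR adjusted p = 0.0566). The difference came to -0.73 between the libraries numbered 1 and to -0.15 between p27OE 3 and EV control 2 and 3. Without EV control 1 the log2 fold change was -0.17. EV control 1 was also the library with the highest leukocyte marker sum, and the part of those cells in the Mxi1 level was not tested. Mxi1 lies on chromosome 19 at 53310518 to 53375810 on the plus strand (GRCm38), and the span of Gm10197, on the opposite strand, covers 194 of its exonic bases.

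Mnt, the broadly expressed antagonist, had 31.5, 33.0 and 29.4 CPM in p27OE and 33.9, 29.8 and 30.5 CPM in EV control. The groups overlapped fully. The log2 fold change was -0.00 ± 0.09 (± SE; adjusted p by edgeR = 0.984) with a 95% interval from -0.21 to 0.20. That interval was the narrowest among the antagonists. Mnt lies on chromosome 11 at 74830920 to 74845725 on the plus strand (GRCm38) and no other annotated gene overlaps it.

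**Figure D3:**
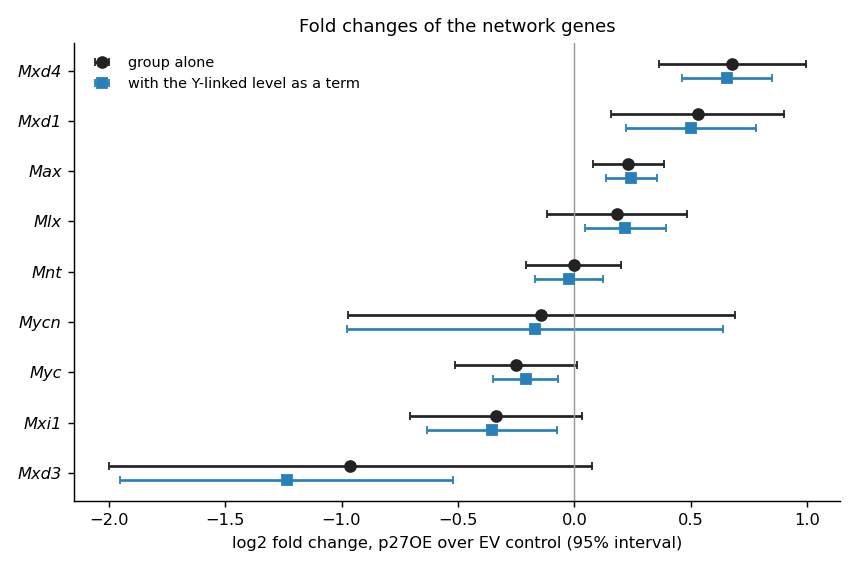
Log2 fold change of each network gene, p27OE over EV control, with its 95% interval (not adjusted for multiple tests), from the model with the group alone (black circles) and in the Y-adjusted model (blue squares). Mxd4, Mxd1 and Max lie above 0 with both intervals clear of it, Myc, Mxd3 and Mxi1 lie below 0 and Mlx above it with only the blue interval clear of it, and Mnt lies at 0.

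Levels were compared between genes after division by exon length (CPM per kilobase). In EV control cells the order was Myc (33.1 ± 4.12), Max (17.0 ± 0.600), Mlx (10.8 ± 1.03), Mxd3 (8.48 ± 0.324), Mnt (6.78 ± 0.474), Mxd4 (4.94 ± 0.904), Mxi1 (3.80 ± 0.793), Mxd1 (0.969 ± 0.118) and Mycn (0.177 ± 0.0293), all in CPM per kilobase (SD, n = 3). Mxd4 and Mxi1 were the only neighbours in that order whose libraries overlapped. In p27OE cells Mxd4, at 7.90 ± 0.265 CPM per kilobase, came above Mnt, at 6.76 ± 0.394, with no overlap, which turns the order per kilobase seen in EV control. That turn depends on the exon lengths used (8.483 kb for Mxd4 and 4.627 kb for Mnt), and the annotation used for counting is not given. Before division by length, Mxd4 (36.2 to 50.6 CPM) was already above Mnt (29.8 to 33.9 CPM) in EV control. Mxd3, at 4.35 ± 2.62 CPM per kilobase in p27OE, overlapped there with Mnt and with Mxi1. It lay below Mxi1 in p27OE 3 (1.85 against 3.01). In EV control Mxd3 (8.16 to 8.81) lay above Mxi1 (3.21 to 4.70) in every library. Apart from Mxd4, Mnt and Mxd3, the order of the means was as in EV control.

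The makeup of the antagonist transcripts differed more than their sum. The summed level of the 5 antagonists was 26.5, 23.4 and 20.4 CPM per kilobase in p27OE 1, 2 and 3, against 27.9, 23.5 and 23.5 in EV control 1, 2 and 3, and the groups overlapped. Mxd4 made up 31.0%, 33.0% and 38.3% of that sum in p27OE, against 21.4%, 18.1% and 19.6% in EV control. Mxd3 made up 26.7%, 17.6% and 9.06% in p27OE, against 31.6%, 36.0% and 34.7% in EV control. The log2 ratio of Mxd4 to Mxd3 was 0.22, 0.90 and 2.08 in p27OE 1, 2 and 3, against -0.56, -0.99 and -0.83 in EV control 1, 2 and 3. Mxd4 and Mxd3 are the network genes with the largest rise and the largest fall, and the groups did not overlap for either. The separation of their ratio follows from those values and is not a separate result. Per kilobase, Mxd3 was the more abundant of the pair in every EV control library and Mxd4 in every p27OE library. The order in EV control rests on the exon lengths used (8.483 kb for Mxd4 and 2.369 kb for Mxd3). Before division by length, Mxd4 (36.2 to 50.6 CPM) was already above Mxd3 (19.3 to 20.9 CPM) in EV control.

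**Figure D4:**
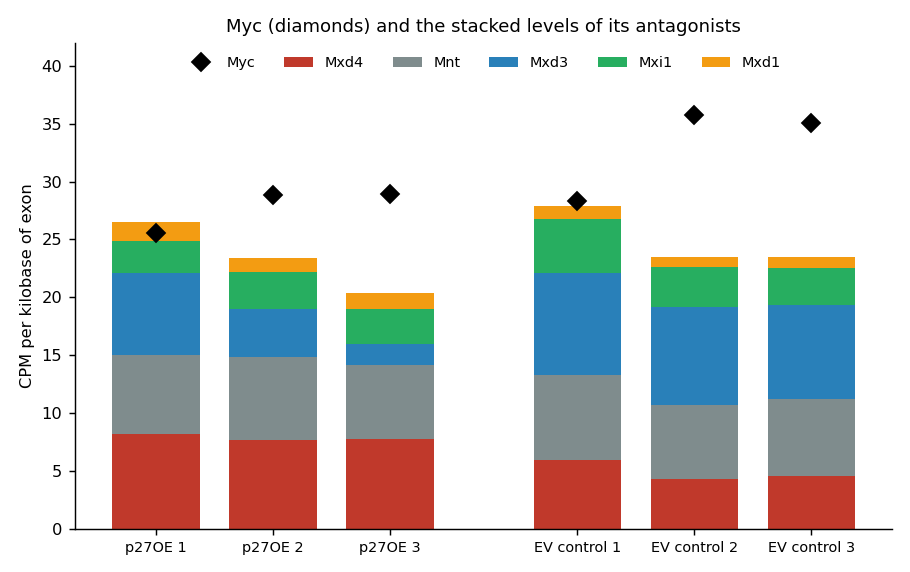
Level of Myc (black diamonds) and stacked levels of its 5 antagonists (bars: Mxd4 red, Mnt grey, Mxd3 blue, Mxi1 green, Mxd1 orange) in CPM per kilobase of exon, 1 bar per library with p27OE at the left. Bar heights are 20.4 to 26.5 in p27OE and 23.5 to 27.9 in EV control, while the red part is larger and the blue part smaller in p27OE.

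Set against the sum of its antagonists, Myc showed no separation of the groups. The log2 ratio of Myc to the 5 summed antagonists was -0.05, 0.30 and 0.51 in p27OE 1, 2 and 3, against 0.02, 0.61 and 0.58 in EV control 1, 2 and 3. The means were 0.25 ± 0.28 in p27OE and 0.40 ± 0.33 in EV control (SD, n = 3 each), so the difference of -0.15 is smaller than the spread within either group. In each group the library numbered 1 had the lowest ratio. Leaving Mxd3 out of the sum moved the difference to -0.46. The size and sign of each ratio rest on division by exon length, and without that division the difference was -0.39 with all 5 in the sum. No p is given for these ratios, since they are scores over chosen genes.

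Set against single partners, Myc differed by partner. The log2 ratio of Myc to Mxd4 was 1.64, 1.90 and 1.89 in p27OE, against 2.25, 3.07 and 2.93 in EV control. Per kilobase, Myc thus exceeded Mxd4 by 3.51-fold in p27OE and 6.72-fold in EV control (geometric means). These folds rest on the exon lengths used (2.717 kb for Myc and 8.483 kb for Mxd4). Before division by length, mean CPM was 75.5 for Myc and 67.0 for Mxd4 in p27OE, and 89.8 and 41.9 in EV control. In p27OE 1 both genes were at 69.6 CPM. The log2 ratio of Myc to Mxd1 was 4.01, 4.56 and 4.39 in p27OE, against 4.69, 5.36 and 5.23 in EV control. The log2 ratio of Myc to Max was 0.41, 0.53 and 0.49 in p27OE, against 0.80, 1.07 and 1.0 in EV control. These 3 ratios did not overlap between the groups and were lower in p27OE, as were 30.3% of the ratios of Myc to the other tested genes with no library at 0. The ratios of Myc to Mxd3, Mxi1 and Mnt overlapped. For Mxd3 the mean log2 ratio was 2.88 ± 1.06 in p27OE and 1.96 ± 0.24 in EV control (SD, n = 3 each).

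Across the 6 libraries, the profiles nearest to Myc, by root-mean-square difference in centred log2 CPM among 10371 genes (mean log2 CPM 2 or more, predicted symbols left out), belonged to Rsl1d1 (0.021), Lsm12 (0.025), H2afy (0.026), Nop9 (0.027) and Ampd3 (0.028). Their log2 fold changes ran from -0.27 to -0.21, and none passed (edgeR adjusted p from 0.192 to 0.324). The profiles nearest to Mxd4 belonged to Klc4 (0.047), Npr2 (0.047), Nacc2 (0.055), Man2b2 (0.056) and Dhrs3 (0.057), all of which rose by 0.68 to 0.77 on the log2 scale (edgeR adjusted p from 0.0346 to 0.0451). Genes chosen for nearness over these same libraries must have fold changes like those of Myc or Mxd4, so these values are not a separate result. Within the network the closest profiles were Max and Mlx (0.10) and Mxd1 and Mxd4 (0.13), and the farthest were Mxd3 and Mxd4 (1.08).

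Genes known to be activated by MYC mostly had fold changes below 0, although few passed. Of 38 such genes tested, 37 had a log2 fold change below 0, against 48.2% of all tested genes, and the median was -0.42, against 0.01 over all genes. In the model with the group alone 4 of the 38 fell and 1 rose (edgeR), against 2.61% of all genes called. Bcat1, a branched-chain amino acid transaminase, had 144, 149 and 123 CPM in p27OE and 215, 240 and 226 CPM in EV control, with a log2 fold change of -0.71 ± 0.10 (± SE; adjusted p by edgeR = 0.0337). Odc1, the first enzyme of polyamine synthesis, fell by 0.51 ± 0.09 (edgeR adjusted p = 0.0454), the mitochondrial serine enzyme gene Shmt2 by 0.91 ± 0.17 (edgeR adjusted p = 0.0493) and the nucleolar gene Npm1 by 0.50 ± 0.09 (edgeR adjusted p = 0.0495). Shmt2 and Npm1 are named after their values were seen. Odc1 and Npm1 have near-identical copies in the genome, which makes their counts less certain. Ccnd2, which encodes cyclin D2, was the exception and rose by 0.77 ± 0.10 (edgeR adjusted p = 0.0303), with 1117, 1211 and 1334 CPM in p27OE and 678, 716 and 747 CPM in EV control.

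The groups did not overlap for 24 of the 38 activated genes (63.2%, against 33.3% of all genes). The Y-adjusted model had 29 fallen and 1 risen, which is 78.9% called, against 34% of all genes. DESeq2 called 17 lower and 1 higher, against 16.6% of all genes. Without EV control 1 the counts were 29 and 1, against 12.9% of all genes called. Without both libraries numbered 1 they were 30 and 1, against 16.7% of all genes. Without any single library other than EV control 1, 0 fell and 0 rose, but those fits called only 1 or 2 of all genes. The number below 0 stayed at 37 of 38 in each of these fits. The median of the list against the EV control mean was -0.45, -0.33 and -0.36 log2 units in p27OE 1, 2 and 3, and -0.26, 0.14 and 0.12 in EV control 1, 2 and 3. EV control 1 therefore lay nearer to the p27OE libraries than to the other controls, and it was also the lowest control for Myc.

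Of 9 genes known to be repressed by MYC, 5 lay above 0 and 4 below, with a median of 0.06. edgeR called 0 of them, 4 had an unadjusted p under 0.05 (26% of all genes did), and DESeq2 called 3 higher and 1 lower (16.6% of all genes were called). The kinase inhibitor genes Cdkn2b and Cdkn1a had log2 fold changes of 0.60 ± 0.12 (edgeR adjusted p = 0.0548) and 0.69 ± 0.16 (0.0675), while the stress response gene Ndrg1 was at -1.24 ± 0.32 (0.0769). The Y-adjusted counts were 3 risen and 2 fallen, against 34% of all genes called. The list thus had no common direction.

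**Figure D5:**
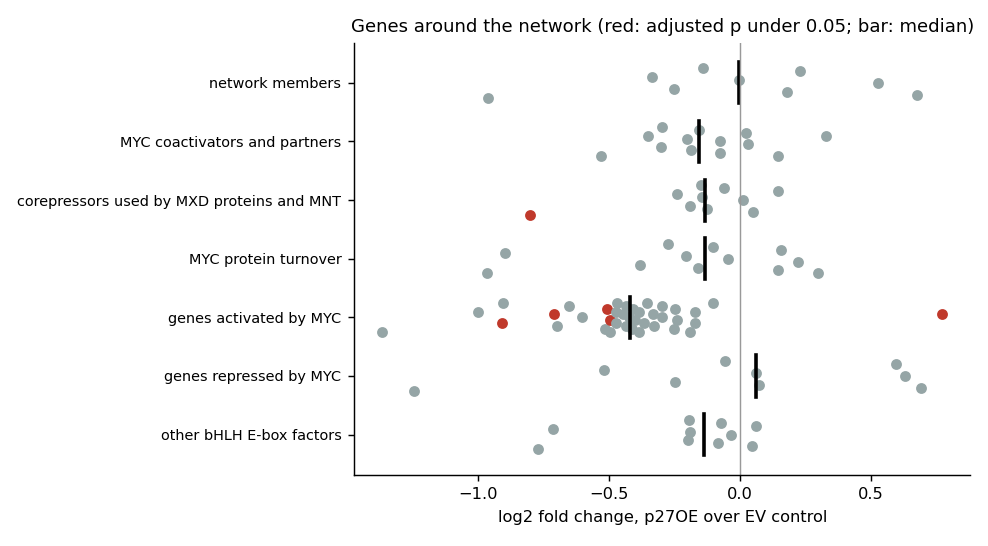
Log2 fold change, p27OE over EV control, of each tested gene in the network and in 6 lists around it, with genes at an edgeR adjusted p under 0.05 in red, other genes in grey and the median of each list as a black bar; vertical scatter within a row only separates points. The genes activated by MYC lie to the left of 0 except for 1 red point, Ccnd2, whereas the network genes spread on both sides of 0.

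No cofactor of MYC passed in the model with the group alone. Of 13 coactivators and partners of MYC, 9 lay below 0 with a median of -0.16, with 0 called by edgeR, 5 at an unadjusted p under 0.05 (26% of all genes) and 3 called lower by DESeq2 (16.6% of all genes called). The 3 with the smallest p were Ruvbl2 at -0.53 ± 0.11, Actl6a at -0.30 ± 0.08 and Ruvbl1 at -0.35 ± 0.10, subunits of chromatin complexes that MYC recruits (edgeR adjusted p = 0.0559, 0.0799 and 0.0886). Y adjustment gave 5 fallen and 0 risen, which is 38.5%, against 34% of all genes. Of 10 corepressor genes used by MXD proteins and MNT, 7 lay below 0 with a median of -0.13, and Sap30, a SIN3 complex subunit, fell. Sap30 had 5.69, 5.80 and 5.05 CPM in p27OE and 9.52, 10.6 and 8.69 CPM in EV control. Its log2 fold change was -0.80 ± 0.13 (± SE; adjusted p by edgeR = 0.0437), in a model that called 2.61% of all genes. No corepressor gene was called with total counts as the scaling (313 of 13990 genes called in all). None was called without any single library other than EV control 1, but those fits called only 1 or 2 of all genes. Rbbp4 and Rbbp7, histone-binding subunits, were at -0.19 ± 0.07 and -0.24 ± 0.09 without passing. Of the 10 corepressor genes, 4 fell and 1 rose after Y adjustment, against 34% of all genes called.

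Genes that control MYC protein turnover had 8 of 12 members below 0 with a median of -0.13. edgeR called 0 of them, 6 had an unadjusted p under 0.05 (26% of all genes), and DESeq2 called 1 higher and 3 lower (16.6% of all genes called). C330027C09Rik, the table's symbol for Cip2a, an inhibitor of the phosphatase that destabilises MYC, was at -0.96 ± 0.20, Aurka, a mitotic kinase that stabilises MYCN, at -0.90 ± 0.20, and Btrc, a ubiquitin ligase subunit, at 0.30 ± 0.07 (edgeR adjusted p = 0.0574, 0.0667 and 0.0724). After Y adjustment 4 fell and 1 rose, which is 41.7%, against 34% of all genes. Beside these, the 8 proliferation genes all lay below 0, against 48.2% of all tested genes, with a median of -0.88. edgeR called 0 of them in the model with the group alone. DESeq2 called all 8 lower (16.6% of all genes called), and all 8 fell after Y adjustment (34% of all genes called).

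Other genes of the extended network and other E-box binders did not pass in the model with the group alone. Mlxip, which encodes MondoA, had 48.2, 49.5 and 52.8 CPM in p27OE and 48.0, 47.0 and 48.1 CPM in EV control, at 0.07 ± 0.06 on the log2 scale (edgeR adjusted p = 0.523). Mga, another MAX partner, was at 0.05 ± 0.13 (edgeR adjusted p = 0.859). Mycl was at -0.00 ± 0.58 (edgeR adjusted p = 0.998) and Mlxipl was under the filter. The MondoA targets Arrdc4 and Txnip were at -0.19 ± 0.08 and -0.06 ± 0.12 (edgeR adjusted p = 0.182 and 0.782). Of 10 other bHLH factors that bind E-boxes, 8 lay below 0 with a median of -0.14, edgeR and DESeq2 called 0, and 2 had an unadjusted p under 0.05, against 26% of all genes. The circadian regulators Bhlhe40 and Npas2 were at -0.71 ± 0.27 and -0.77 ± 0.30 and Usf2 at -0.19 ± 0.09 (edgeR adjusted p = 0.158, 0.176 and 0.224), and 3 of the 10 fell in the Y-adjusted model, against 34% of all genes.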

How the data were processed

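RNA-seq counts per gene symbol were analysed as deposited: the authors' counts are whole numbers with no normalization. Per the submitters' processing notes, the tools were featureCounts 1.4.6, Subread, Bowtie2 2.2.6 and TopHat2 2.0.14, with the mm10 build. The annotation and strand setting are not given in the sources used here. Per the labels' protocols, the library kit was TruSeq RNA v2.

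Columns were matched to samples by title. Genes were filtered with filterByExpr, scaled by TMM and tested with the two-sided quasi-likelihood test of edgeR 4.0.16 (robust glmQLFit) in R 4.3.3, group as the only term, with Benjamini-Hochberg adjustment over all genes tested and a threshold of 0.05. Values of log2 CPM hold a prior count of 2. Alternatives were other scalings and filters, DESeq2 1.42.0, limma 3.58.1, the replicate number as a block, the Y-linked level as a covariate (summed CPM as a share of the highest library) and libraries left out. Exon lengths and coordinates come from GENCODE M21 (GRCm38). 2 listed symbols were matched through RefSeq synonyms.

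The network genes, lists, Y-linked term and omission of the libraries numbered 1 were chosen with earlier results of these data known. Named were all 9 network genes, the 3 genes with the smallest p of each list around the network, and the 5 nearest profiles to Myc and to the other network gene with the smallest p. Since the labels do not say that samples were separate cultures, each p measures no more than the spread between these libraries. That spread is not technical alone, since Y-linked sums were 1.95, 57.1 and 137 CPM in p27OE 1, 2 and 3. EV control 1 (0.125 CPM) likewise differed from EV control 2 and 3 (126 and 124 CPM), whereas those 2 were alike. On simulated counts over 13832 genes, with changes placed only in genes above a mean of 4 CPM, 71% of 2-fold and 92% of 4-fold changes were called, and 7 of 170 calls were false.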

Additional observations from a re-analysis of the deposited data

How the results depend on the processing

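The 365 genes called in all became 2321 with DESeq2, 2410 with the replicate block, 4761 in the Y-adjusted model and 2334 without both libraries numbered 1, and 1 to 1827 with single libraries left out. The 4 activated genes called lower became 2 with total counts (313 of 13990 genes called in all), 17 with DESeq2 (16.6% of all genes) and 25 with the replicate block (2410 of 13990). The 0 network genes called became 1 with the stricter filter (4.04% of all genes called) and 1 with limma-voom (3% of all genes). Their number was 3 with DESeq2 (16.6% of all genes) and 5 with the Y-linked term (34% of all genes). With the replicate block 3 were called (Mxd1, Mxd3 and Mxd4), against 2410 of 13990 genes in all. Without both libraries numbered 1 the number was 2 (Myc and Mxd4), against 16.7% of all genes. It was 0 to 2 with single libraries left out, the 2 being Myc and Mxd4 without EV control 1 (12.9% of all genes). The cause was not tested. The deviations of same-numbered libraries from their group means correlated across genes at r = 0.67, 0.04 and 0.50 for numbers 1, 2 and 3, and p27OE 3 correlated best with EV control 2 (0.56). Libraries of like Y-linked level correlated whether or not their numbers matched, and deviations within a group sum to 0. These values therefore cannot decide whether the numbers pair the libraries.

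The difference in the log2 ratio of Myc to its summed antagonists, -0.15, was -0.46 without Mxd3 in the sum, -0.39 with counts not divided by length, and ran from -0.34 to 0.0025 with single libraries left out. The fold changes of Myc, Max, Mlx, Mxd1, Mxd3, Mxd4 and Mxi1 kept their direction under all 16 alternatives. Those of Myc, Mlx, Mxd3 and Mxi1 moved in size with single libraries left out, as given with each gene. Values near 0 changed sign without a call: Mycn was at 0.079 without both libraries numbered 1. Mnt was at 0.00090 with total counts, 0.00095 with the stricter filter, 0.0034 with limma-voom and 0.033 without both libraries numbered 1, and ran from -0.058 to 0.039 with single libraries left out. Mycn rests on 18 to 36 counts per library.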

Other observations

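Mycl, the MYC family member outside the 9 genes, differed between libraries within both groups. It had 2.34, 5.10 and 12.1 CPM in p27OE 1, 2 and 3 and 4.07, 7.41 and 8.03 CPM in EV control 1, 2 and 3, beside Y-linked sums of 1.95, 57.1 and 137 CPM and of 0.125, 126 and 124 CPM. The difference between p27OE 1 and EV control 1 was -0.79 on the log2 scale and that between p27OE 3 and EV control 2 and 3 was 0.64. Gas1, a growth arrest gene of the list repressed by MYC, varied in the opposite sense to Mycl, with 217, 85.9 and 16.3 CPM in p27OE 1, 2 and 3 and 242, 41.1 and 48.9 CPM in EV control 1, 2 and 3. Gas1 was chosen here after its values were seen, and so was the comparison with the Y-linked level.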
